A study of Saccharomyces cerevisiae with 10 samples.

Results

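The 10 histone genes of budding yeast described here encode histone H2A (HTA1 and HTA2), H2B (HTB1 and HTB2), H3 (HHT1 and HHT2), H4 (HHF1 and HHF2), the H2A variant H2A.Z (HTZ1) and the linker histone H1 (HHO1). They were taken by name from tables of 7041 features (7027 in the YAR comparison of WT and jhd2Δ), and all 10 were found in every table and passed the filter on low values. The strains are BY4742 yeast that carried, lacked or overexpressed JHD2. Its product, Jhd2, is a demethylase of histone H3 that acts on methylated lysine 4. Total RNA was depleted of ribosomal RNA, sequenced from single ends, and quantified by the authors as FPKM, which scales the fragments of a gene by its length and by the size of the library.

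WT (MSY723) and jhd2Δ (MSY724, a deletion of JHD2 marked with a hygromycin cassette) were grown in synthetic minimal medium with ammonium and glucose (YAD), with glutamate in place of ammonium (YGD), or with raffinose in place of glucose (YAR). Each group had 3 replicate cultures, except that WT and jhd2Δ had 2 each in YAR. Overexpression of JHD2 (OE) from a multicopy plasmid with the constitutive ADH1 promoter was set against the empty vector (EV) in leu2 cells, in YAR. For YAD the EV and OE values are the authors' group FPKM values. Both WT and jhd2Δ are listed as MATα in the study's strain list, whereas by the labels WT was Mat alpha with glucose and Mat a with raffinose, jhd2Δ was Mat a throughout, and the vector strains were Mat alpha.

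A nucleosome wraps DNA around an octamer of H2A, H2B, H3 and H4, with a linker histone bound to the DNA between octamers. In yeast the core histone genes lie in divergent pairs, H2A beside H2B and H3 beside H4, that share a regulatory region, and their transcription is largely confined to S phase. H2A.Z is placed at promoters by the SWR1 complex, and HTZ1 and HHO1 stand alone in the genome.

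The targeted gene followed its labels. JHD2 averaged 5.05 FPKM in WT and 0.0313 in jhd2Δ in YAD, 6.04 and 0.0149 in YGD, and 15.8 and 0 in YAR, and it rose from 30.7 in EV to 1878 in OE. Mating-type markers did not follow the labels everywhere. The 7 a-specific genes summed to 46.5 to 145 FPKM in WT and 15827 to 18334 in jhd2Δ in YAD, and to 66.1 to 221 and 6729 to 10466 in YGD, while the 5 alpha-specific genes ran the other way, so that mating type and genotype cannot be told apart in either medium. With raffinose, where both are labelled Mat a, the a-specific sum of WT and jhd2Δ was 5624 to 6304 and the alpha-specific sum 17.7 to 35.0 FPKM. Among the vector strains, labelled Mat alpha, the a-specific sum was 6022, 3733 and 434 in EV replicates 1 to 3 and 2756, 2307 and 751 in OE replicates 1 to 3, whereas the alpha-specific sum was highest in replicate 3 of each (1572 in EV and 585 in OE, against 74.7 to 118 in the others). WT replicate 3 in YGD also stood apart, with an FPKM sum of 1183230 against 1534363 to 1599687 in the other 5 libraries. FPKM sums in YAR were 818862 and 857216 in WT but 1058791 and 1077309 in jhd2Δ. Read numbers are not known from FPKM, so precision was judged from the spread between cultures.

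The regulatory regions between divergent partners were read from the RefSeq R64 genome, whose coordinates for all 10 genes are the same as in every table. They span 817 bases between HTB1 and HTA1 on chromosome IV, 699 between HTA2 and HTB2 and 646 between HHF1 and HHT1 on chromosome II, and 676 between HHT2 and HHF2 on chromosome XIV. The core of the element bound by Spt10, an activator of core histone genes, was searched as TTCC, any 6 bases and TTC on both strands, and each region held it at least 1 time. The matches are printed because they are what the 4 regions share, with the searched core in capitals and 6 flanking bases on each side.
HTA1-HTB1, chrIV:915108-915132, plus strand: gcgctgTTCCAAAATTTTCgcctca
HTA1-HTB1, chrIV:915133-915157, minus strand: actccaTTCCAATAGCTTCgcacag
HTA2-HTB2, chrII:236104-236128, minus strand: aaggtgTTCCCATTATTTCtcaaag
HHT1-HHF1, chrII:255940-255964, minus strand: aaactgTTCCGAGCGCTTCtcccca
HHT2-HHF2, chrXIV:576342-576366, minus strand: tgtccgTTCCGAGCACTTCgcatta
The matches lay 262 to 427 bases from the start codons on either side. The core was found inside the 500 bases before the start codon of all 8 core genes and of 13.6% of 6019 protein-coding genes, and in neither HTZ1 nor HHO1. In a window from 250 bases before to 50 after the start codon, none of the 10 genes held the motif, against 7.77% of 6020. The letters of an SBF site (CGCGAAA) stood within 500 bases of HTB1, HHT2, HHF2 and HHO1 (5.8% of all) and those of an MBF site (ACGCGT) within 500 bases of HTA2 and HTB2 (5.4% of all). A match is a description of the sequence and not a site shown to be bound.

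The copies of each core histone are close but not identical in coding sequence. HTA1 and HTA2 (399 bases each) were 93.7% identical, HTB1 and HTB2 (396 bases) 87.9%, HHT1 and HHT2 (411 bases) 93.2%, and HHF1 and HHF2 (312 bases) 97.4%, and the longest runs without a difference were 65, 35, 74 and 80 bases. Of the stretches of 51 bases, the read length, 4.3% in each H2A gene, none in the H2B genes, 11.6% in each H3 gene and 20.6% in each H4 gene also occurred in the other copy. The sources used here do not say how reads that fit both copies were shared out, so the split between HHF1 and HHF2 is the least certain, and summed copies are given beside single genes. HTZ1 (405 bases, chrXV:303579-303983, minus strand) and HHO1 (777 bases, chrXVI:308828-309604, minus strand) had no such stretch in common with another place in the genome. FPKM is per length, so levels of different genes can be compared within a table.

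In WT cells in YAD the core histone mRNAs were abundant and the other histones were not. HTA1 was the highest, at 1725, 1496 and 1615 FPKM in replicates 1 to 3, and HTB2 the next, at 1171, 1038 and 1198, with no overlap between them. HHF2, HTA2, HTB1, HHT2 and HHF1 followed with means of 896, 818, 817, 796 and 774, and each of these overlapped the next in the order. HHT1 was the lowest core gene (530, 376 and 420 FPKM), HTZ1 stood at 110, 93.3 and 89.7 and HHO1 at 43.3, 40.9 and 45.8. HTZ1 thus made up 3.57% to 4.05% of the summed FPKM of HTZ1, HTA1 and HTA2. HTZ1 and HHO1 lay below every core histone gene in each of the 22 libraries.

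**Figure D1:**
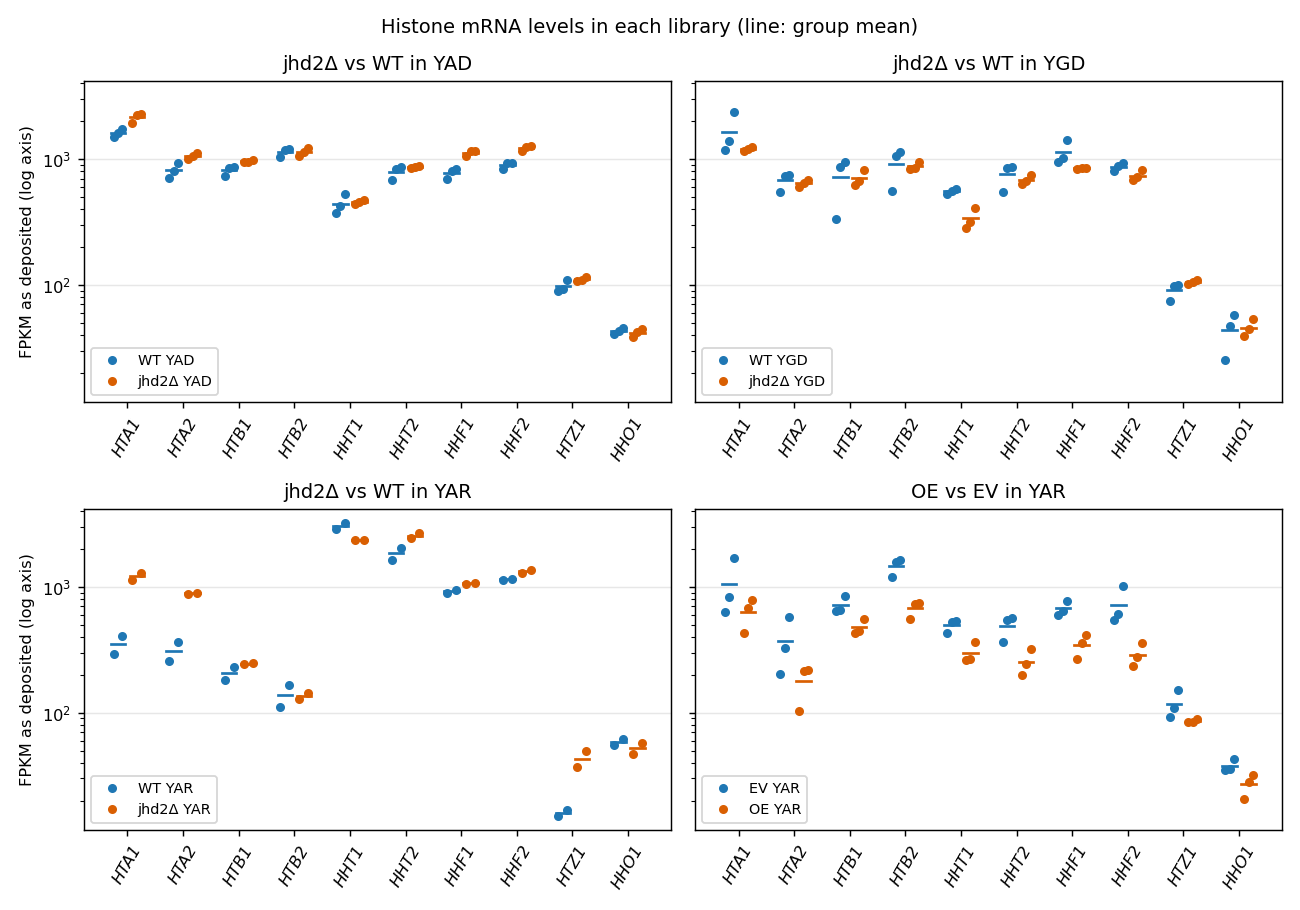
FPKM as deposited (log axis) of the 10 histone genes in each of 22 libraries; points are replicate cultures, lines are group means, blue is the control and orange the compared group. In YAR, HTA1, HTA2 and HTZ1 of jhd2Δ lie above WT with no overlap, and in OE the points of 8 genes lie below all EV points.

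Loss of JHD2 in YAD was accompanied by more H4 mRNA. HHF1 read 799, 690.5 and 834 FPKM in WT and 1060.5, 1149 and 1168 in jhd2Δ, and HHF2 read 925, 828 and 937 in WT and 1153, 1239 and 1279 in jhd2Δ. The groups did not overlap for either gene. HHF1 rose by 0.60 ± 0.08 on the log2 scale (SE, n = 3 per group, limma, adjusted p = 0.00832) and HHF2 by 0.51 ± 0.07 (adjusted p = 0.0107). These were the 2 of 10 histone genes called (adjusted p under 0.05 and a fold change over 1.4), where 1.68% of 6185 tested features were called higher, 4.04% lower and 5.72% in either direction. In FPKM as deposited 5 of the 10 genes, both H4 and both H2A genes and HTB1, were higher in jhd2Δ with no overlap, where 8.75% of features were higher and 20.8% lower without overlap.

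Both H2A genes passed the p threshold but not the fold. HTA1 was 1725, 1496 and 1615 FPKM in WT and 1939, 2296 and 2223 in jhd2Δ, with no overlap, a difference of 0.47 ± 0.07 on the log2 scale (1.39-fold, adjusted p = 0.0141). HTA2 differed by 0.44 ± 0.11 (936, 712 and 806 FPKM in WT and 1063, 1126 and 994 in jhd2Δ, adjusted p = 0.0494), and its adjusted p was 0.0642 to 0.156 with any 1 library left out. The H2B and H3 genes differed less, with log2 differences of 0.29 ± 0.08 for HTB1 (adjusted p = 0.0686), 0.07 for HTB2, 0.12 for HHT1 and 0.18 for HHT2. HTZ1 differed by 0.25 ± 0.09 (adjusted p = 0.137) and HHO1 by 0.01 ± 0.07 (adjusted p = 0.972). With copies summed, H4 was called (1671 ± 135 FPKM in WT and 2350 ± 121 in jhd2Δ, SD, n = 3, log2 difference 0.55 ± 0.08, adjusted p = 0.0099) and H2A passed the p threshold alone (0.46 ± 0.08, adjusted p = 0.0199), whereas H2B (0.17 ± 0.10) and H3 (0.16 ± 0.10) did not. Scaling libraries to the FPKM of protein-coding genes shifted the median of all features by -0.11 and left no histone gene called (HHF1 at 0.47 and HHF2 at 0.37), and on it HTB2, HHT1 and HHO1 fell below 0. On that scaling 37 features were called higher and 413 lower, and on FPKM as deposited 60 and 295, against 104 and 250. The mating-type difference given above moves with this comparison, and its part in it was not tested.

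Some ratios between histones were apart in the same libraries, but none passed a test. The ratio of summed H3 to summed H4 was 0.809, 0.700 and 0.709 in WT replicates 1 to 3 and 0.588, 0.569 and 0.534 in jhd2Δ, without overlap, a fall by 0.39 on the log2 scale. The H2A to H2B ratio was 1.32, 1.24 and 1.18 in WT and 1.39, 1.60 and 1.59 in jhd2Δ, also without overlap. An exact two-sided permutation test gives p = 0.1 for each, which is the smallest that 3 against 3 allows, and the adjusted value over the 32 ratios tested is 0.32. There were 3 further ratios without overlap, at the same p. HTB1 over HTB2 was 0.710 to 0.725 in WT and 0.777 to 0.889 in jhd2Δ, HHF1 over HHF2 was 0.834 to 0.890 and 0.913 to 0.928, and HTZ1 over summed H2A was 0.0370 to 0.0423 and 0.0336 to 0.0364. The ratio of H2A and H2B to H3 and H4 overlapped between the groups (1.48 to 1.54 in WT and 1.39 to 1.48 in jhd2Δ). HTA1 over HTA2 and HHT1 over HHT2 overlapped as well. Mating type moved with genotype for these ratios too.

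In YGD no histone gene was called, where 0.338% of 6213 features were called in either direction. An unadjusted limma p under 0.05 was found for 2 of the 10 and for 426 of the 6213 features. No fitted log2 difference was above 0, and they ran from 0.00 for HTZ1 to -0.95 ± 0.28 for HHT1 (adjusted p = 0.629). HHT1 read 526, 557 and 575 FPKM in WT and 319, 412 and 286 in jhd2Δ, with no overlap. In FPKM as deposited HHF1 was likewise lower without overlap (945, 1018 and 1425 in WT and 840.1, 849 and 844 in jhd2Δ) and HTZ1 higher (99.9, 97.3 and 74.4 in WT and 109, 106 and 101 in jhd2Δ), where 1.38% of features were lower and 9.5% higher without overlap. On the scale of the fits HHF1 and HTZ1 overlapped, whereas HHT1, HTA2, HTB2, HHT2 and HHF2 were lower without overlap. The share of all features without overlap was not counted on that scale, so this list has no background to be read against. It also depends on the library scale, which multiplies WT replicate 3 by 1.59. The signs of HTB1, HTB2, HTZ1 and HHO1 turn with the scaling, since all 4 were above 0 on FPKM as deposited, a scale on which the median of all features moved to 0.20. With copies summed, the log2 differences were -0.54 for H2A, -0.18 for H2B, -0.58 for H3 and -0.56 ± 0.32 for H4, with adjusted p from 0.691 to 0.817.

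WT replicate 3 in YGD carried an unlike set of histone values. Its HTA1 was 2384 FPKM against 1185 and 1401 in the other WT libraries, its HTB1 337 against 940.2 and 873 and its HTB2 554 against 1058 and 1130, so that H2A over H2B was 3.29 there and 0.966 and 1.07 in the others. Its HTA1 made up 81.3% of summed H2A against 61.4% and 65.5%. These levels are FPKM as deposited, and the library scale was 1.59 in this library and 0.892 and 0.888 in WT replicates 1 and 2. On the scale of the fits its HTB1 and HTB2 thus lay nearer to the other WT libraries and its HTA1 farther from them. The ratio and the share do not depend on the library scale. Without this library HHT1 differed by -0.64 ± 0.10 (adjusted p = 0.086), HTA1 by -0.04 ± 0.11 and HHF1 by -0.16 ± 0.10, no histone gene was called, and HTZ1 stood at 0.15 ± 0.09.

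In YAR, jhd2Δ cells held more H2A and H2A.Z mRNA than WT, and no other histone gene passed the test. HTA1 was 407 and 295 FPKM in WT replicates 1 and 2 and 1286 and 1139 in jhd2Δ. HTA2 was 363 and 256 in WT and 878 and 893 in jhd2Δ. HTZ1 was 16.9 and 15.2 in WT and 49.2 and 37.0 in jhd2Δ. The groups did not overlap for any of these genes, and the fitted log2 changes were 1.80 ± 0.23 for HTA1 (3.49-fold, adjusted p = 6.46e-05), 1.54 ± 0.22 for HTA2 (2.90-fold, adjusted p = 0.000244) and 1.36 ± 0.19 for HTZ1 (2.56-fold, adjusted p = 0.000174, limma, n = 2 per group). These 3 of 10 were called higher and none lower, where 13.8% of 5846 features were called higher and 8.6% lower (22.4% in all). Non-overlap alone is common with 2 cultures per group, since it was seen in 8 of the 10 genes and in 31.9% of features on the higher side and 32.3% on the lower.

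These calls rest on few cultures. Without WT replicate 2 none of the 10 genes was called, with HTA1 at 1.57 (adjusted p = 0.0871), HTA2 at 1.29 (adjusted p = 0.0996) and HTZ1 at 1.29 (adjusted p = 0.139), and the number of features called in all fell from 1308 to 42. Without WT replicate 1, HTZ1 was at 1.42 (adjusted p = 0.0597) and both H2A genes were called. A group left with 1 library is assumed here to vary like the other group. Scaling to protein-coding FPKM shifted the median of all features by -0.33, gave 378 features higher and 1682 lower in place of 805 and 503, and kept the 3 calls (1.47 for HTA1, 1.20 for HTA2 and 1.04 for HTZ1) while calling HHT1 (-0.70) and HHO1 (-0.49) lower.

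The H2B partners of the H2A genes did not pass the test. HTB1, which shares its regulatory region with HTA1, was 232 and 180.1 FPKM in WT and 247 and 244 in jhd2Δ (log2 difference 0.26 ± 0.20, adjusted p = 0.378). HTB2, the partner of HTA2, was 166 and 110.003 in WT and 128 and 142 in jhd2Δ, which overlap (0.00 ± 0.21, adjusted p = 0.996). The ratio of HTA1 to HTB1 was 1.75 and 1.64 in WT and 5.21 and 4.68 in jhd2Δ, and that of HTA2 to HTB2 was 2.18 and 2.33 in WT and 6.84 and 6.27 in jhd2Δ. These ratios of partners were computed after the values were seen and were not tested. The ratio of summed H2A to summed H2B was 1.93 and 1.90 in WT and 5.77 and 5.26 in jhd2Δ, a log2 difference of 1.53, and 2 against 2 cannot give an exact permutation p below 0.333. Cultures of a single group could also differ widely in this ratio, at 0.966, 1.07 and 3.29 in WT in YGD and 0.468, 0.379 and 1.23 in EV in YAR. Within the remaining groups it ran from 1.18 to 1.32 (WT, YAD), 1.39 to 1.60 (jhd2Δ, YAD), 1.09 to 1.27 (jhd2Δ, YGD) and 0.459 to 0.892 (OE, YAR).

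The H3 and H4 genes in YAR did not pass the test. HHT1 was 2896 and 3193 FPKM in WT and 2369 and 2364 in jhd2Δ (-0.36 ± 0.23, adjusted p = 0.274), and HHT2 was 2051 and 1631 in WT and 2657 and 2421 in jhd2Δ (0.47 ± 0.23, adjusted p = 0.156). The copies thus lay on opposite sides, and their sum was 4886 ± 86 in WT and 4905 ± 170.1 in jhd2Δ (SD, n = 2). HHF1 and HHF2 were each at 0.21 (adjusted p = 0.519 and 0.516), and these, with HTB1, fall below 0 when libraries are scaled to protein-coding FPKM. HHO1 overlapped between the groups (61.5 and 55.0 FPKM in WT and 47.0 and 57.2 in jhd2Δ). With copies summed, H2A was the only core histone called (660.1 ± 155 FPKM in WT and 2098 ± 94 in jhd2Δ, log2 difference 1.69 ± 0.23, adjusted p = 0.000171). As HTZ1 and the H2A genes moved together, HTZ1 was 2.15% and 2.69% of the summed FPKM of HTZ1, HTA1 and HTA2 in WT and 2.22% and 1.79% in jhd2Δ, with overlap.

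**Figure D2:**
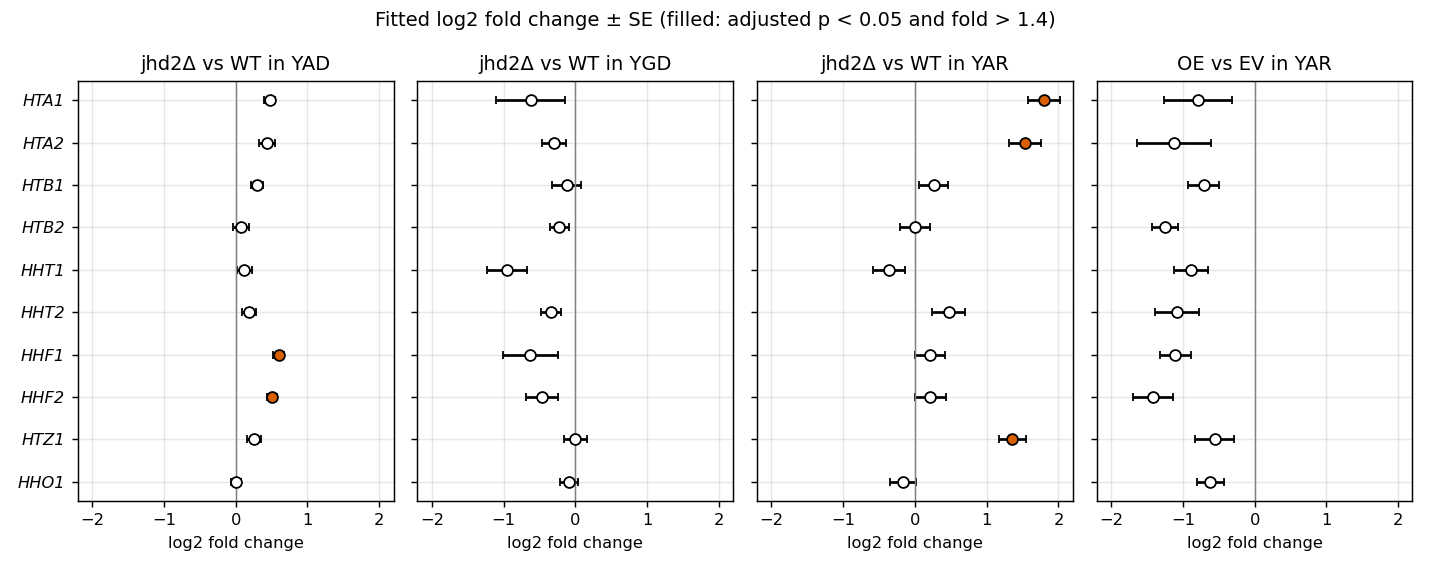
Fitted log2 fold change with its SE for the 10 histone genes in the 4 comparisons with replicates; filled points passed an adjusted p of 0.05 and a fold change of 1.4. HHF1 and HHF2 are filled in YAD, HTA1, HTA2 and HTZ1 in YAR, and none in YGD or in OE, where all 10 points lie below 0.

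Whether the jhd2Δ effect differed between media was tested as a contrast of the effects within each table. Between YAR and YAD, 3 of 10 genes differed by the same rule, which is close to the 25.5% of 5702 features that did (15.3% higher in YAR and 10.2% lower). These were HTA1 (1.33 ± 0.20 higher on the log2 scale in YAR, adjusted p = 0.00142), HTA2 (1.10 ± 0.23, adjusted p = 0.0065) and HTZ1 (1.11 ± 0.19, adjusted p = 0.00279). With any single library left out, the differences ran from 1.10 to 1.55 for HTA1, 0.85 to 1.34 for HTA2 and 0.91 to 1.30 for HTZ1. The contrast pools the spread of both tables, so a YAR group left with 1 library is assumed to vary like the other groups. HHF1 and HHF2, called in YAD, differed by -0.39 ± 0.15 (adjusted p = 0.0858) and -0.29 ± 0.15 (adjusted p = 0.17). Between YGD and YAD no histone gene was called (0.049% of 6121 features were), with differences from -0.09 for HHO1 to -1.23 ± 0.42 for HHF1 (adjusted p = 0.494). Without WT replicate 3 in YGD the difference for HHF2 was called (-0.75 ± 0.11, adjusted p = 0.0473).

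The core histone pool of WT and jhd2Δ in YAR was made up unlike that of all other libraries. H3 took 60.2% and 62.7% of summed core histone FPKM in WT and 50.3% and 49.97% in jhd2Δ, against 14.5% to 19.4% in the 18 other libraries, and H2B took 3.76% to 4.85% against 12.4% to 44.3%. WT and EV cells were both grown in YAR, in tables that were normalised separately, and their means were 3044 and 499 FPKM for HHT1, 138 and 1462 for HTB2 and 16.1 and 118 for HTZ1. The YAR table of WT and jhd2Δ gave coordinates equal to those of R64 for 88.8% of shared features, against 99.2% in the other tables, although all 10 histone genes had equal ones. The part of this difference in the levels was not tested.

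**Figure D3:**
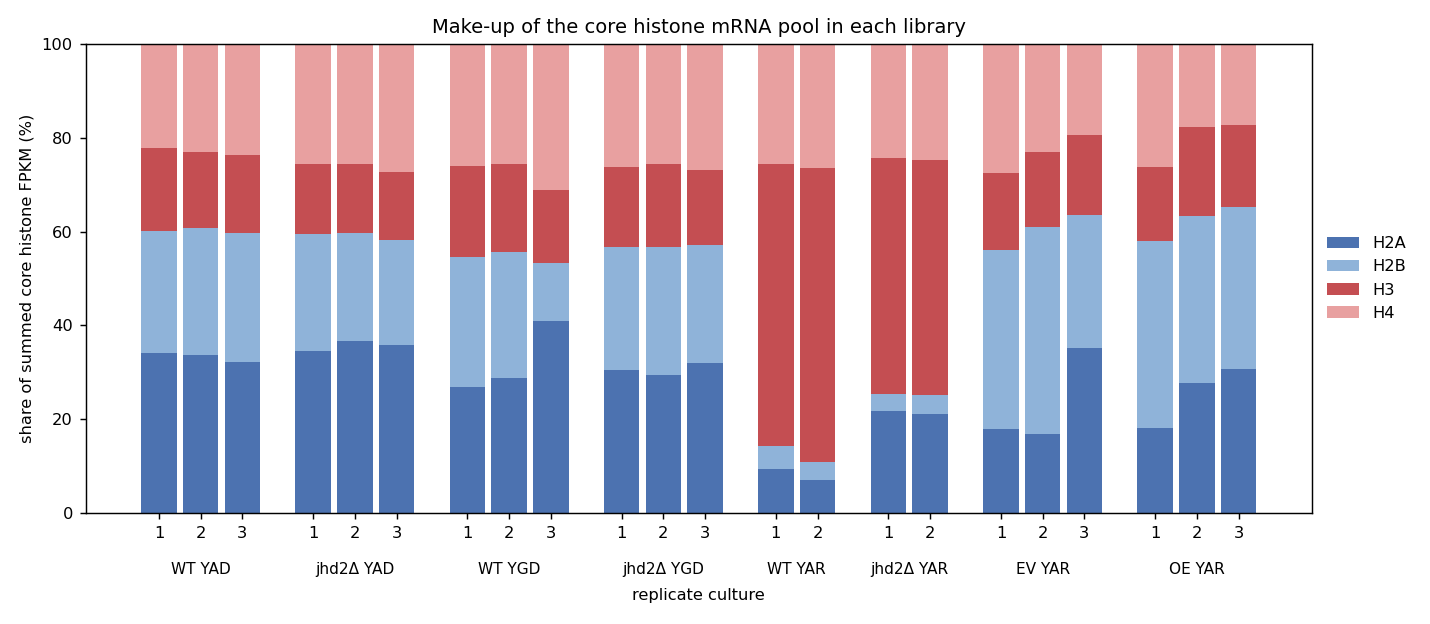
Share (%) of summed core histone FPKM taken by H2A, H2B, H3 and H4 in each of 22 libraries, with the replicate culture below each bar. H3 takes 49.97% to 62.7% in the 4 libraries of WT and jhd2Δ grown with raffinose, and H2A takes 21.2% and 21.7% in jhd2Δ there against 7.15% and 9.37% in WT.

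Overexpression of JHD2 in YAR went with lower values of all 10 histone genes, but none was called. Only JHD2 itself was called among 6331 features (0.0158%), and 904 had an unadjusted p under 0.05, among them 7 of the 10 histone genes. HTB2 was 1640.3, 1560.04 and 1186 FPKM in EV replicates 1 to 3 and 738, 728 and 553 in OE, without overlap (log2 difference -1.25 ± 0.19, adjusted p = 0.233). HHF2 was 1012, 548 and 606 in EV and 358, 278 and 233 in OE, again without overlap (-1.42 ± 0.28, adjusted p = 0.277). HHF1 was 777, 594 and 646 in EV and 411, 358 and 269 in OE (-1.10 ± 0.22, adjusted p = 0.277).

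The groups were apart for 8 of 10 genes, where 7.2% of features had all OE values below all EV values and 16.6% all above. The H3 genes were among them, with HHT1 at -0.88 ± 0.24 and HHT2 at -1.08 ± 0.31 (adjusted p = 0.291 for both), and so were HTB1 (-0.71 ± 0.21), HHO1 (-0.62 ± 0.19) and HTZ1 (109, 92.9 and 151 FPKM in EV and 84.5, 89.7 and 83.7 in OE, -0.55 ± 0.27). HTA1 and HTA2 overlapped, since EV replicate 3 had HTA1 at 1694 and HTA2 at 574 FPKM against 834 and 634 and 329 and 202 in the other EV libraries. With copies summed, H4 was at -1.26 ± 0.25, H2B at -1.05 ± 0.18, H3 at -0.98 ± 0.27 and H2A at -0.87 ± 0.48, with adjusted p from 0.257 to 0.446. The median over the 10 genes was -0.98, against -0.01 over all features tested. Without EV replicate 2, HTB2 (-1.25, adjusted p = 0.0477), HHF1 (-1.24, adjusted p = 0.0494) and HHF2 (-1.64, adjusted p = 0.0396) were called, along with 216 features in all. Without replicate 3 of both groups, the libraries with the most alpha-specific RNA, all 10 remained below 0, from -0.30 for HTZ1 to -1.33 for HHF2, and none was called.

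Genes of the late cell cycle were low in the same OE libraries. Of the 10 G2/M genes none was called but all lay below 0 (median -1.05), and their sum was 153 to 230.3 FPKM in EV and 79.9 to 114 in OE. Of the 11 M/G1 genes 10 lay below 0 (median -1.24), and of the 15 G1/S genes 12 did (median -0.21). None of these was called with all libraries, but without EV replicate 2, the fit in which 3 histone genes were called, 8 G2/M and 8 M/G1 genes were called. That fit called 216 of 6332 features, whereas leaving out any other single library called 2 to 6. In bulk RNA, fewer cells in a phase and less RNA per cell cannot be told apart, and the part of this shift in the histone values was not tested.

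The authors' group values for YAD, which are on another scale than the fits, showed smaller log2 differences with overexpression. JHD2 itself was 24.0 in EV and 6886 in OE as a group value there. All 10 histone genes were lower in OE than in EV, from -0.08 for HHT2 to -0.43 for HTA2 on the log2(FPKM + 1) scale, beside a median of -0.12 over 6223 features. HTA2, the gene with the largest difference, was 367 in EV and 271 in OE. None of the 10 passed 1.4-fold, where 4.95% of features were lower and 1.57% higher by that much. In EV cells, raffinose went with lower group values than glucose for all 10 genes, from -0.42 for HTA1 (643 in YAD and 481 in YAR) to -1.23 for HHO1 (51.8 and 21.5), with a histone median of -0.60 beside -0.71 over 6241 features. Every histone gene but HTA1 was lower by over 1.4-fold, as were 64.3% of all features, and 6.63% were higher by that much. The EV cells of YAD serve both comparisons. These are single values per group, with no replicate check and no test. They are on another scale than the replicate FPKM, since HTA1 of EV in YAR was 481 as a group value and 634 to 1694 in the replicate cultures.

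**Figure D4:**
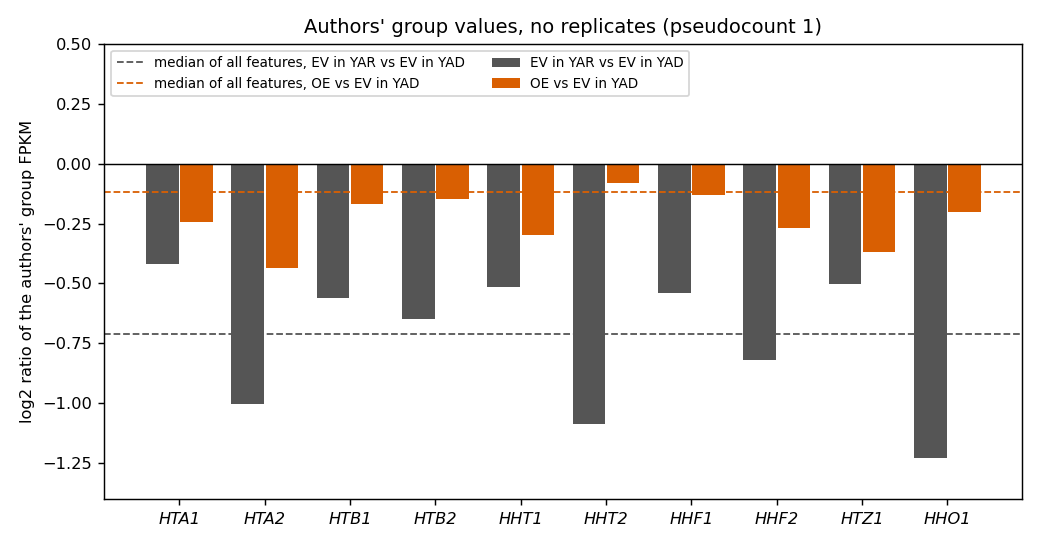
Log2 ratio of the authors' group FPKM (pseudocount 1) for the 10 histone genes, for EV in YAR against EV in YAD (grey) and OE against EV in YAD (orange), with dashed lines at the median of all features. Every bar lies below 0, and the 10 grey bars straddle their median of -0.71.

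Genes that handle histones were counted against the share called among all features, 5.72% in YAD and 22.4% in YAR. In YAD none of 12 histone gene regulators, 14 histone chaperones and assembly factors, 13 SWR1 subunits, 11 INO80 subunits and 4 genes of the centromeric nucleosome was called, and in YGD and OE none of these was called either. In YAR the regulators (median -0.32) and SWR1 subunits (median -0.10) again had no called gene. Of the chaperones, 1 of 14 was called, NHP6A, an HMG-box partner of the chaperone FACT, which rose by 0.61 ± 0.20 (adjusted p = 0.036). It was not the largest change among them, since a chaperone gene that was not called rose by 1.71. IES3, an INO80 subunit, fell by 0.71 (adjusted p = 0.00957) and CSE4, the centromeric H3 variant, fell by 0.71 (adjusted p = 0.0212). The median over all features was -0.01 in YAR and 0.01 in YAD, and these counts in YAR depend on the scaling. Scaled to protein-coding FPKM, 7 of 12 regulators, 5 of 13 SWR1 subunits, 4 of 14 chaperones, 4 of 11 INO80 subunits and 2 of 4 centromeric genes were called, on a scale where 2060 features were. With the replicate block, or without WT replicate 1 or 2, none of these genes was called in YAR, and NHP6A and CSE4 were also not called without the robust option or without jhd2Δ replicate 1.

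Of the cell-cycle genes in jhd2Δ, 2 of 15 G1/S genes were called in YAD, and 3 of 15 G1/S and 2 of 10 G2/M genes in YAR, where 5.72% and 22.4% of all features were. Of the G1/S genes, CLN2, a G1 cyclin, fell by 0.91 in YAD (adjusted p = 0.00663) and CLB6, an S-phase cyclin, rose by 0.64 (adjusted p = 0.0214). In YAR CLN2 fell by 0.82 (adjusted p = 0.0312) and CLN1, a G1 cyclin, by 0.58 (adjusted p = 0.0369), and RFA2, a subunit of replication protein A, rose by 0.66 (adjusted p = 0.0206). Of 10 G2/M genes, SWI5, a transcription factor of early G1, fell by 0.79 (adjusted p = 0.0106) and ALK1, a haspin-like kinase, by 0.63 (adjusted p = 0.0169) in YAR. No G1/S or G2/M gene was called in YAR with the replicate block or without WT replicate 1 or 2, and no G1/S gene without the robust option. No M/G1 gene was called with all libraries in any comparison, but scaling to protein-coding FPKM called 2 in YAD and 1 in YAR. The summed G1/S genes were 542 to 608 FPKM in WT and 531 to 613 in jhd2Δ in YAR. The G2/M sum was 401 to 439 in WT and 348 to 349 in jhd2Δ, with all 10 genes below 0. The M/G1 sum was 1322 to 1652 in WT and 1656 to 1915 in jhd2Δ, with a median log2 difference of 0.04 over its genes. Neither sum overlapped between the groups, but in this comparison 31.9% of single features were higher and 32.3% lower without overlap. The part of these differences in the H2A and HTZ1 values was not tested.

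Across the 22 libraries, with values centred within each table, the histone genes followed each other unequally. HHT2 had the closest fit to the mean of the other core genes (Pearson r = 0.949, Spearman rho = 0.975) and HHO1 the loosest (0.59 and 0.477). Taken by class, H2A ran with H2A.Z (r = 0.912) more closely than with H2B (0.476), and HHO1 ran with H2B (0.813) more closely than with H2A (0.219). Centring was by table and not by group, so all these correlations include the group differences given above. The libraries share tables and sums, and without the OE table, over 16 libraries, r with the mean of the other core genes was 0.921 for HHT2, 0.194 for HTB1 and -0.205 for HHO1. The correlations between classes were not computed without the OE table. The 5 other features most like the core mean, among 3221 with at least 10 FPKM on average in every table, were ADH1 (alcohol dehydrogenase, r = 0.917), TUB1 (alpha-tubulin, 0.905), CUE4 (0.902), ACH1 (acetyl-CoA hydrolase, 0.891) and SDH1 (succinate dehydrogenase, 0.891), and all 5 were lower without the OE table (0.744 to 0.827).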

How the data were processed

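RNA was measured in 10 sample groups. Read quality was examined with FastQC 0.10.1 and alignment run in TopHat2 2.0.12 on top of Bowtie2 2.1.0. The authors deposited FPKM values per replicate culture from Cufflinks 2.1.1 and group FPKM values from Cuffdiff 2.1.1 with an SGD annotation. The sources used here do not give the strand setting. No library scale was based on spike-in rows alone, and no row was taken out for being a spike-in.

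Values of 22 replicate columns entered the fits. A further 6 replicate columns were left out, because the sheet that names OE and EV in YAD held the YAR values in 7041 of 7041 features, and 8 columns of group values were not used. The authors' fold changes, p-values and q-values were not used. Tables were normalised separately, so levels were compared within a table.

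Tests used limma 3.58.1 in R 4.3.3 (eBayes, trended and robust). FPKM was multiplied by a library scale, the median of ratios to the geometric mean, and 1 was added before log2. Features entered with mean FPKM at or above 1. This scale understates the change of low genes. A call needed both an adjusted p (Benjamini-Hochberg) under 0.05 and a fold change over 1.4. Tests are two-sided, and the fits were tested on simulated data. FPKM is printed as deposited. Ratios within a library were compared with an exact permutation test (SciPy).

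Named genes are the 10 histone genes, JHD2, up to 3 called genes per list and comparison, and the 5 features most like the core mean. The genes and lists were chosen with earlier results of these data known. Alternatives were other scalings, a pseudocount of 0.1, no filter, no robust option, a replicate block and leaving out each library. Chosen after seeing the data were the fit without replicate 3 of EV and OE, the partner ratios and the 500-base window.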

Additional observations from a re-analysis of the deposited data

Results flagged for a closer look

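The jhd2Δ effect differed between YAR and YAD for 3 of the 10 histone genes by a test of the difference itself. For HTA1 the effect was 1.33 higher on the log2 scale in YAR, with 0.47 in YAD and 1.80 in YAR. For HTA2 it was 1.10 higher, with 0.44 and 1.54. For HTZ1 it was 1.11 higher, with 0.25 and 1.36. Among all 5702 features 25.5% met the same rule, so the count of histone genes is close to the background. Both H2A genes and HTZ1 lay higher in jhd2Δ in all cultures of YAR, and in YAD mating type moved with genotype while in YAR both strains expressed a-specific genes. The tables also differ in annotation and in the make-up of the histone pool. The part of each was not tested.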

How the results depend on the processing

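No fitted difference reversed while called. The number of histone genes called in YAD (2) was 1 on FPKM as deposited and 0 when scaled to protein-coding FPKM, where 0 summed histones were called. On that scaling 5 histone genes and 2060 features were called in YAR, and 6 histone genes in the difference between YAR and YAD. Without the robust option 853 features were called in YAR. A pseudocount of 0.1 and no filter kept all these counts within 1.5 times. The sources used here do not say whether same-numbered cultures were grown or processed together. Same-numbered libraries did not all deviate together (correlations of -0.11 to 0.16). In YAD each library correlated best with its own number, as did WT replicate 3 in YGD and EV replicates 1 and 3. WT replicates 1 and 2 in YGD, both WT replicates in YAR and EV replicate 2 did not. With the replicate block 180 features were called in YAD, 13 in YGD and 174 in YAR, and 0 summed histones in YAR, where HTA2 had an adjusted p of 0.0511. The block changed no other call of a single histone gene. Without replicate 3 of EV and of OE, 5 features were called. Leaving out 1 library gave 147 to 373 called features in YAD, 12 to 38 in YGD, 42 to 1166 in YAR and 2 to 216 for OE. It gave 2 to 3 called histone genes in YAD, 0 to 3 in YAR, 0 to 3 for OE, 0 to 1 in the difference between YGD and YAD and 3 to 4 in that between YAR and YAD, and 1 to 2 summed histones in YAD, 0 to 1 in YAR and 0 to 1 for OE. Leaving out 1 library turned the sign of some ratios in YGD, where H2A over H2B ran from -0.68 to 0.20 and HTA1 over HTA2 from -0.61 to 0.12 on the log2 scale. FPKM hides the read depth, and YAR has 2 cultures per group.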
